A study of Homo sapiens with 4 samples.

Results

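The APOBEC3 genes encode cytidine deaminases, enzymes that turn cytosine into uracil in single-stranded DNA. The family was taken as the 7 rows APOBEC3A, APOBEC3B, APOBEC3C, APOBEC3D, APOBEC3F, APOBEC3G and APOBEC3H of a table of 26484 gene symbols, chosen by name and not by their values. RNA sequencing had been done on 2 libraries of a p53 knockout of A375 cells, made with CRISPR-Cas9, and on 2 libraries of the A375 parental line with wild-type p53. A375 is an established human melanoma line, grown here in DMEM, and both groups were otherwise untreated as far as the labels say. The knockout libraries are called knockout 2 and knockout 8 after their columns, and the parental ones parental 1 and parental 2. The design names a single knockout line, and whether the libraries of a group were separate clones or cultures is not stated, so the p-values cover the spread between these libraries, which may be technical. Edited cells that had kept p53 were not part of the comparison, so loss of p53 cannot be told apart from editing and selection.

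In human cells APOBEC3 proteins act as restriction factors: they enter virions or ribonucleoproteins and mutate, or otherwise block, the DNA copies of retroviruses and of mobile elements such as LINE1. The same chemistry on the cell's own DNA leaves clustered mutations, for which APOBEC3A and APOBEC3B are the best-known sources in tumours. APOBEC3A, APOBEC3C and APOBEC3H have a single zinc-binding domain, the others a pair. p53 is known to touch the family in both directions: APOBEC3B is repressed through p21 and the DREAM complex, and APOBEC3C and APOBEC3H have been described as p53-activated. The series concerns repression of LINE1 by p53, and the comparison shows whether these restrictors differ between knockout and parental cells.

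The 4 libraries held between 29230554 and 36331894 reads assigned to genes, and each deposited value is a read count divided by the library's size factor, called a normalized count below. Of the p53 targets, EDA2R, a receptor gene, had 16.8 and 42.0 normalized counts in knockout 2 and knockout 8, against 252 and 250 in parental 1 and parental 2. DDB2 had 1019 and 1138 against 2094 and 2126. CDKN1A, also a p53 target, had 4898 and 2603 against 3561 and 3889, with overlapping groups. Of 12 melanocyte and melanoma markers, SOX10, a transcription factor of the melanocyte lineage, had 28125 and 25662 in the knockout libraries and 30033 and 29587 in the parental ones, whereas the pigment genes MLANA and TYR had 0 reads. Of 15 lymphoid and myeloid markers, which matter here because blood cells are rich in APOBEC3 transcripts, 10 stayed under 10 normalized counts in every library. Among them were PTPRC, CD3D and MS4A1. HLA-DRA, which melanoma cells can express, had 2571 and 10736 in knockout 2 and knockout 8, against 12166 and 12216. The other markers of that list summed to 187 and 310 in the knockout libraries and 122 and 143 in the parental ones. The 10 keratinocyte and fibroblast markers summed to 172 and 279 in the knockout libraries and 216 and 235 in the parental ones, with KRT1 and CDH1 at 0 reads. Of these 3 lists DESeq2 called 1 gene, MITF, the melanocyte master regulator, at 849 and 1050 against 1645 and 1562 (adjusted p = 0.00272). It called 2.44% of all genes. limma tested 8 melanocyte, 4 blood cell and 4 keratinocyte and fibroblast markers and called 0. At an unadjusted limma p under 0.05, 5.85% of all genes were higher and 6.16% lower. MITF and S100B passed as lower among melanocyte markers, and ITGAM as higher among blood cell markers. In the last list DCN passed as higher and KRT14 as lower. Their part in the APOBEC3 values was not tested.

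All 7 genes lie side by side on the plus strand of chromosome 22 (GRCh38, GENCODE 29), from chr22:38952741-38992778 for APOBEC3A to chr22:39097224-39104067 for APOBEC3H. They arose by duplication and still hold identical stretches, which bear on how reads were assigned. The longest identical coding stretch of each pair of genes was read from the principal GENCODE 29 transcripts. Some of the longest are shown, because a read lying inside one matches both genes equally well. Capitals mark the codons of the elements that hold the catalytic zinc ion, His-x-Glu in the first run of capitals and Pro-Cys followed, a few residues on, by another Cys in the next, and positions are counted from the first base of the start codon. APOBEC3D and APOBEC3F share 222 bases, at 737 to 958 of APOBEC3D and 698 to 919 of APOBEC3F. APOBEC3A and APOBEC3B share 196 bases, at 173 to 368 and 722 to 917. APOBEC3B and APOBEC3D share their first 172 bases, a run that is not printed below. APOBEC3F and APOBEC3G share their first 142 bases, which hold neither element.
APOBEC3D and APOBEC3F: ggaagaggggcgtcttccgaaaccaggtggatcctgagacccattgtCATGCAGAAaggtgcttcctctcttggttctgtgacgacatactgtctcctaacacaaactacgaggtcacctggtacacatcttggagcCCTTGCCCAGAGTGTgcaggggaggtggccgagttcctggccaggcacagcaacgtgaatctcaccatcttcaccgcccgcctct
APOBEC3A and APOBEC3B: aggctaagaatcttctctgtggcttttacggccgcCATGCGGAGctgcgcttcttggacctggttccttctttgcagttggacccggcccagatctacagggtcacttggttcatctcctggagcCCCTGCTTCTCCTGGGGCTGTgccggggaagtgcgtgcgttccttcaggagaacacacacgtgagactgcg
APOBEC3F and APOBEC3G: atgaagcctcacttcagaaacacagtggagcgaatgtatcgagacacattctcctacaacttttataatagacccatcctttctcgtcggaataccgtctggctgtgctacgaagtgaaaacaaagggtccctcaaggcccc

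Thus the longest run of the first pair and of the second covers both zinc elements of the domain it lies in. Of all windows of 50 bases in a coding sequence, 35.9% of those of APOBEC3A, 35.3% of APOBEC3B, 35.3% of APOBEC3F, 27.3% of APOBEC3D, 11.8% of APOBEC3G and 6.14% of APOBEC3C also occur in another member. APOBEC3H shared none of its 500 windows. With windows of 100 bases the shares were 19.7% for APOBEC3A, 19.3% for APOBEC3B, 19.4% for APOBEC3F, 18.5% for APOBEC3D and 4.08% for APOBEC3G, and 0% for APOBEC3C and APOBEC3H. Neither the read length nor the rule for reads that align to several genes is known here, so some reads of APOBEC3A, APOBEC3B, APOBEC3D and APOBEC3F may have been dropped or credited to a relative. GENCODE 29 also places an APOBEC3A transcript across APOBEC3B, and a readthrough gene, AL022318.4, holds 81.1% of the APOBEC3D windows over all transcripts. The table has no row named AL022318.4.

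**Figure D1:**
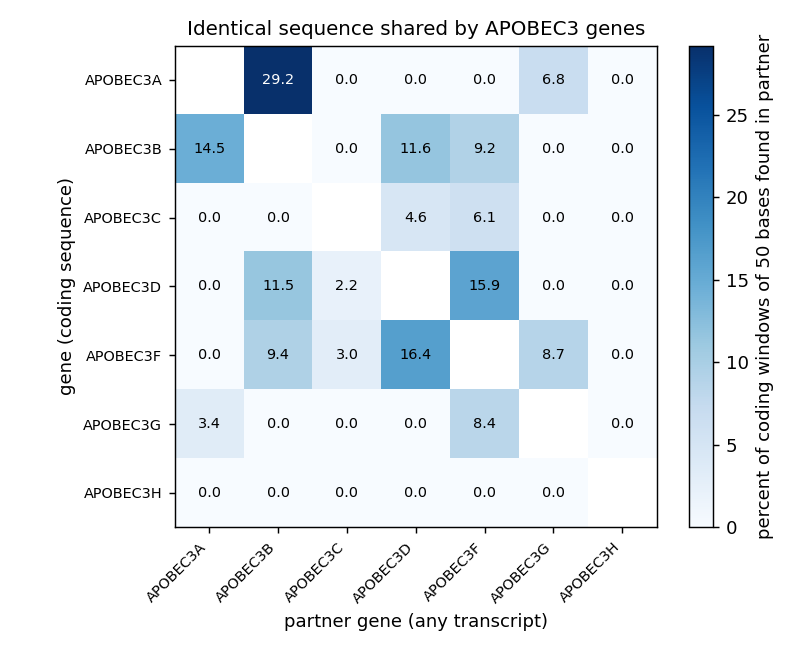
Percentage of the 50-base windows in the coding sequence of each gene (down the page) that occur unchanged in any GENCODE 29 transcript of each other APOBEC3 gene (across). The darkest cell is APOBEC3A against APOBEC3B, at 29.2%, APOBEC3D and APOBEC3F share 15.9% and 16.4%, and the APOBEC3H row and column are 0.

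Together the family took up 2409 and 2316 reads in knockout 2 and knockout 8, against 2144 and 2682 in parental 1 and parental 2. Scaled to library totals (CPM) these were 79.4 and 72.0 in knockout cells and 73.3 and 73.8 in parental cells. Knockout 2 was above and knockout 8 below the parental pair. As these are bulk RNA samples, fewer cells expressing a gene and less of its RNA per cell cannot be told apart.

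5 members passed the filter of at least 10 normalized counts in at least 2 libraries: APOBEC3B, APOBEC3C, APOBEC3D, APOBEC3F and APOBEC3G. Per kilobase of the principal transcript, APOBEC3B had the highest mean level in both groups, 413 and 338 normalized counts per kb in knockout 2 and knockout 8 and 350 and 398 in parental 1 and parental 2. APOBEC3G followed in knockout cells at 358 ± 67 (SD, n = 2), its values overlapping those of APOBEC3B there, and came after APOBEC3C in parental cells at 254 ± 0.76. APOBEC3C had 241 ± 14 in knockout and 277 ± 26 in parental cells. APOBEC3F, at 109 ± 11 and 103 ± 9.7, and APOBEC3D, at 73.7 ± 1.8 and 97.8 ± 3.4, made up the lower end, and their parental ranges overlapped. The place of APOBEC3G rests on the length used: per kilobase of all merged exons, which are longer for this gene (5437 bases against 1834), it had 121 ± 22 in knockout and 85.5 ± 0.26 in parental cells.

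APOBEC3A and APOBEC3H were at or near the floor of detection. APOBEC3A, which is abundant in myeloid cells, had 0 reads in all 4 libraries, which allows up to 0.0989 and 0.0933 CPM in knockout 2 and knockout 8 and up to 0.103 and 0.0826 in parental 1 and parental 2 (3 reads each). The fusion row APOBEC3A_B, named for an allele that joins both genes, also had 0. These ceilings cover counting error only. Reads of APOBEC3A that were dropped or credited to a relative would not appear in them, and 35.9% of its 50-base coding windows occur in another member. The 0 in either row therefore does not bound APOBEC3A expression. APOBEC3H, a single-domain restrictor, had 9 and 5 reads in the knockout libraries against 4 and 15 in the parental ones. The exact 95% Poisson intervals of its counts, which cover counting error only, ran from 4.12 to 17.1 and from 1.62 to 11.7 reads in the knockout libraries and from 1.09 to 10.2 and from 8.40 to 24.7 in the parental ones. No difference in APOBEC3H was detectable at this depth.

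The remaining 5 genes are set out below by direction. By limma on log2(normalized count + 1), fitted over 15431 genes, 0 members passed an adjusted p of 0.05, as did 0% of all genes tested (smallest adjusted p over all genes 0.121). At an unadjusted p under 0.05 there were 2 members, against 12.0% of all genes. They were APOBEC3G, higher as were 5.85% of all genes, and APOBEC3D, lower as were 6.16%. On the recovered reads, edgeR's quasi-likelihood test gave 0 members by adjusted p (0% of all genes) and 1 by unadjusted p, APOBEC3G (12.1% of all genes, 6.13% higher and 5.97% lower). limma-voom called 0 members and 0% of all genes. DESeq2 gave an adjusted p to 6 members and called 0 of them, while it called 2.44% of 16330 genes. The groups did not overlap in 3 of the 5 members, against 46.4% of all genes tested, so that count does not set the family apart.

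APOBEC3G, the restrictor of human immunodeficiency virus that the viral Vif protein counters, had 743 normalized counts in knockout 2 and 570 in knockout 8, against 466 in parental 1 and 464 in parental 2. Both knockout libraries lay above both parental ones, and the parental pair was almost equal. That closeness is no measure of precision. The parental values rest on 425 and 529 reads, with exact 95% Poisson intervals from 386 to 467 and from 485 to 576 reads. The log2 fold change was 0.48 ± 0.16 by limma (SE; 95% interval 0.05 to 0.92; unadjusted p = 0.0354, adjusted p = 0.391), or 1.40-fold on that scale. DESeq2 gave 0.50 ± 0.22 (adjusted p = 0.358). The result changed with the knockout library left out. Without knockout 8 the log2 fold change was 0.67 and was called (adjusted p = 4.60e-04 by limma and 0.00674 by DESeq2), but then limma also called 32.6% and DESeq2 17.1% of all genes. Without knockout 2 it was 0.29 and was not called (adjusted p = 0.0984 by limma and 0.557 by DESeq2), although limma then called 18.8% and DESeq2 8.55% of all genes.

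APOBEC3D, a weaker antiviral member with paired domains, had 183 and 189 normalized counts in the knockout libraries, against 253 and 241 in the parental ones. Here the knockout libraries lay close together and below both parental libraries. The log2 fold change was -0.41 ± 0.15 by limma (95% interval -0.80 to -0.01; unadjusted p = 0.0467, adjusted p = 0.406) and -0.41 ± 0.26 by DESeq2 (adjusted p = 0.699). APOBEC3C, a single-domain member described as active against LINE1, had 652 and 707 against 832 and 730. Its knockout values were below both parental values, but the gap between 707 and 730 was smaller than the difference within the parental pair. The log2 fold change was -0.20 ± 0.12 (95% interval -0.52 to 0.12; adjusted p = 0.568 by limma), and it was -0.10 without parental 1 and -0.29 without parental 2.

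**Figure D2:**
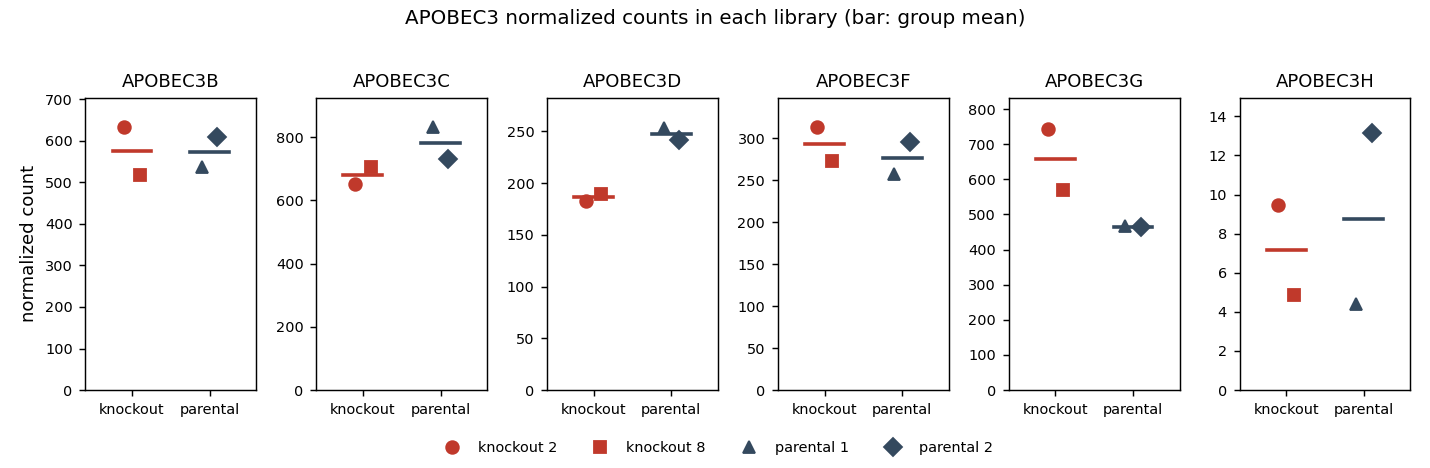
Normalized counts of 6 APOBEC3 genes in each library, knockout left and parental right, with a bar at each group mean; every axis starts at 0 and has its own scale. APOBEC3G is higher in both knockout libraries, APOBEC3C and APOBEC3D are lower in both, the other genes overlap between groups, and APOBEC3A is left out because all its values are 0.

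APOBEC3B, the nuclear mutator that DREAM represses, had 634 in knockout 2 and 518 in knockout 8, against 537 in parental 1 and 610 in parental 2. The knockout libraries lay above and below the parental pair, and the log2 fold change was 0.00094 ± 0.15 (95% interval -0.41 to 0.41; adjusted p = 0.998 by limma). The interval leaves room for a change of up to 0.41 in either direction. APOBEC3F, another antiviral member with paired domains, had 314 and 272 against 258 and 295, a log2 fold change of 0.08 ± 0.16 (95% interval -0.35 to 0.51; adjusted p = 0.851). The antisense row APOBEC3B-AS1 had 3.16 normalized counts in knockout 2 and 0 in the other libraries, a count of 3 reads.

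Among the 5 tested members, the knockout libraries lay farthest apart in APOBEC3G, where knockout 2 exceeded knockout 8 by 0.38 on the log2 scale, and closest in APOBEC3D, where the difference was -0.05. Relative to the parental mean, on the log2 scale, APOBEC3G was at 0.67 in knockout 2 and 0.29 in knockout 8, APOBEC3B at 0.15 and -0.14, and APOBEC3F at 0.19 and -0.02. APOBEC3C was at -0.26 and -0.14, and APOBEC3D at -0.43 and -0.38. These ratios share the parental libraries. Among the 5 members the median absolute log2 difference was 0.20 between the knockout libraries and 0.18 between the parental ones, against 0.23 and 0.09 over all genes tested.

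**Figure D3:**
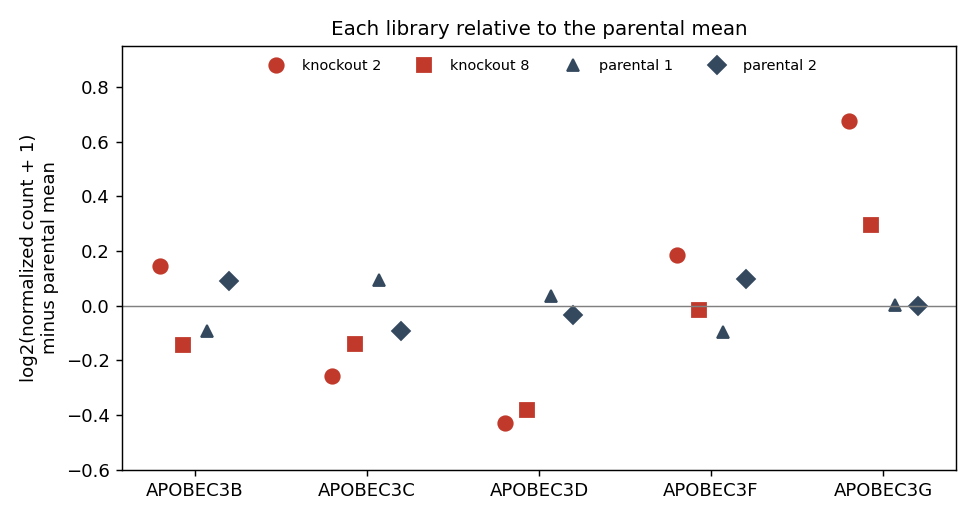
log2(normalized count + 1) of each library minus the mean of the parental libraries for the 5 tested APOBEC3 genes. APOBEC3G lies at 0.67 and 0.29 in the knockout libraries and APOBEC3D at -0.43 and -0.38, while the knockout points of APOBEC3B fall on either side of 0.

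Ratios between members within a library do not depend on how libraries were scaled. Reads of APOBEC3G outnumbered those of APOBEC3D 4.06 to 1 in knockout 2 and 3.01 to 1 in knockout 8, against 1.84 and 1.92 to 1 in parental 1 and parental 2. APOBEC3G over APOBEC3C was 1.14 and 0.807 in knockout cells, against 0.560 and 0.636 in parental cells. APOBEC3F over APOBEC3D was 1.71 and 1.44, against 1.02 and 1.22. APOBEC3B over APOBEC3C, at 0.971 and 0.732 against 0.646 and 0.835, overlapped between groups. The pairs share members, were not tested and were not set against pairs of other genes.

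**Figure D4:**
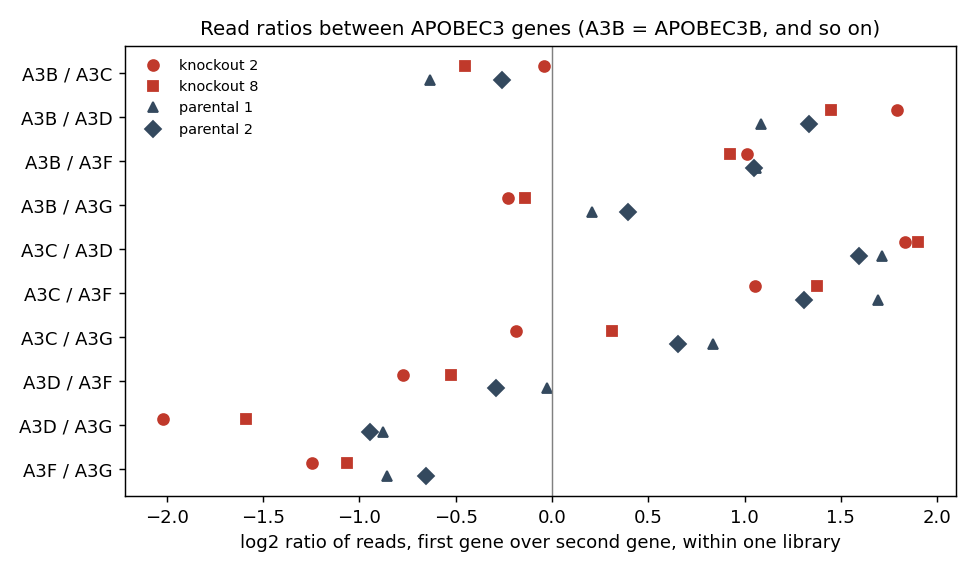
log2 ratio of reads between each pair of tested APOBEC3 genes within each library, knockout points above parental points in each row. The widest gap between groups is for APOBEC3D over APOBEC3G, at -2.02 and -1.59 in the knockout libraries against -0.88 and -0.94 in the parental ones.

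Genes beside the cluster lay both above and below their parental values. Of the 30 other tested genes nearest on chromosome 22, 15 on each side, the median log2 fold change was 0.05, with medians of 0.02 in knockout 2 and 0.02 in knockout 8. Knockout libraries lay above both parental ones in 9 of the 30 and below in 6, where 22.8% and 23.7% of all genes tested did so. CBX6, a Polycomb gene next to APOBEC3B in the tested order, had 3895 and 5080 against 4188 and 4459, and CBX7, next to APOBEC3G, had 480 and 665 against 686 and 665. Of the 16 neighbours listed by name, limma gave an adjusted p under 0.05 to 0 and an unadjusted one to 3, all higher, against 5.85% of all genes: JOSD1, a deubiquitinase gene, with 2389 and 2188 against 1866 and 1861, NPTXR with 386 and 355 against 287 and 255, and PDGFB, a growth factor gene, with 80.0 and 85.9 against 48.2 and 32.5. DESeq2 called 0.

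**Figure D5:**
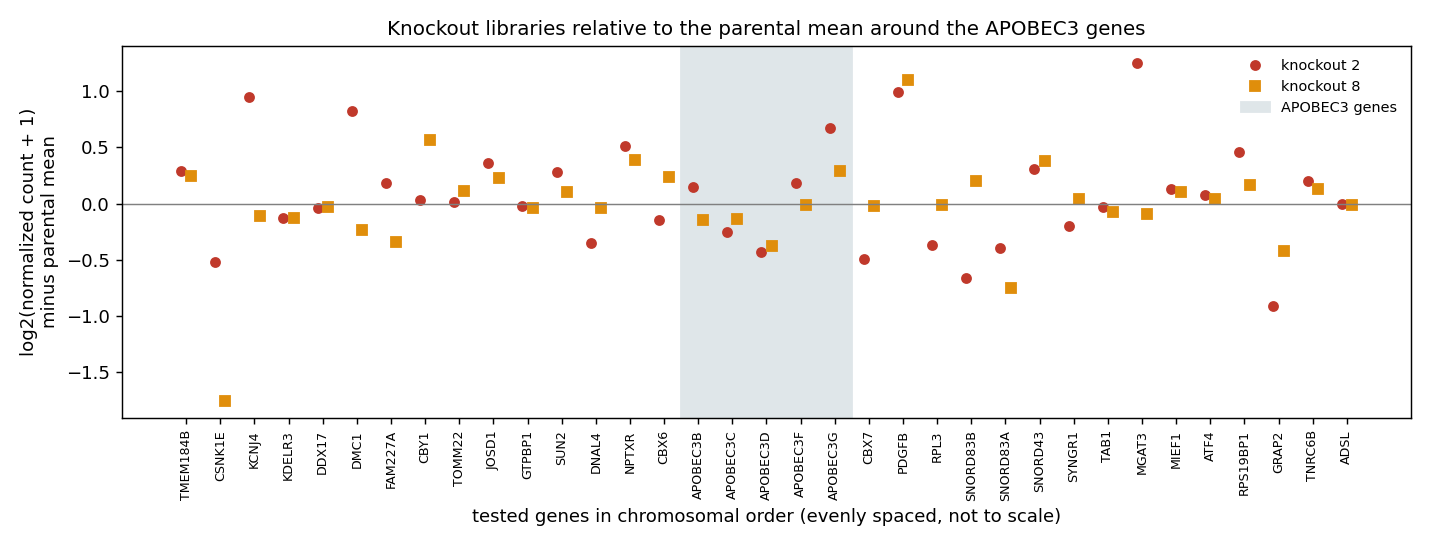
log2(normalized count + 1) in each knockout library minus the parental mean for the 5 tested APOBEC3 genes (shaded) and 15 tested genes on each side in chromosomal order, evenly spaced. Points lie on both sides of 0 along the whole stretch, with a median of 0.02 for each knockout library outside the shaded part.

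Genes known to control APOBEC3 transcription were looked at next, 18 in all. The 3 called higher by DESeq2 (1.21% of all genes were called higher) belong to NF-kB signalling, which is known to induce APOBEC3B: RELB at 2443 and 2412 against 1798 and 1699 (adjusted p = 0.0210), NFKB2 at 8982 and 9106 against 6992 and 6536 (adjusted p = 0.0232) and NFKB1 at 6586 and 6957 against 5022 and 5138 (adjusted p = 0.0266). RELA, of the same pathway, had 3049 and 3785 against 3335 and 3122, with overlapping groups (DESeq2 adjusted p = 0.998). RELB, NFKB1 and NFKB2 were also the 3 genes of the list with an unadjusted limma p under 0.05, all higher, against 5.85% of all genes, and limma called 0 of the 18 by adjusted p. Of the DREAM side, CDKN1A, which encodes p21, had 4898 and 2603 against 3561 and 3889. RBL2, a pocket protein of the complex, had 3627 and 4089 against 4616 and 4080, with overlapping groups. RBL1, another pocket protein, had 1622 and 1491 against 1298 and 1404, both knockout values above both parental ones (limma adjusted p = 0.489). E2F4, the DNA-binding partner of RBL2, had 5720 and 6127 against 5261 and 5423. MYBL2, a cell cycle gene under DREAM control, had 4962 and 3465 against 3441 and 4078, and FOXM1, a mitotic factor, 5065 and 3943 against 3890 and 4335. CDKN1A, RBL1, MYBL2 and FOXM1 were highest in knockout 2, E2F4 in knockout 8 and RBL2 in parental 1, and none of these was called. The median log2 fold change of the list was 0.09, against -0.0057 over all genes tested.

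Interferon induces several APOBEC3 genes, APOBEC3G among them. Of 23 interferon-stimulated genes 22 were tested, with a median log2 fold change of 0.48 and medians relative to the parental mean of 0.64 in knockout 2 and 0.23 in knockout 8. Knockout libraries lay above both parental ones in 14 and below in 3, against the 22.8% and 23.7% of all genes tested. DESeq2 called 2 higher and 1 lower, as it did 1.21% and 1.22% of all genes. limma called 0, and its unadjusted p was under 0.05 for 5 higher and 2 lower genes, against 5.85% and 6.16% of all genes. IFI44L had 215 and 32.2 against 14.3 and 12.3, called higher (DESeq2 adjusted p = 0.0174), with a far larger value in knockout 2 than in knockout 8. ISG20, an RNA exonuclease gene, had 1929 and 2280 against 3288 and 3629 and was called lower (DESeq2 adjusted p = 9.63e-04). IFIT3 had 718 and 572 against 409 and 413, and ISG15, a ubiquitin-like protein gene, 303 and 212 against 132 and 122, both uncalled. IFI44L, IFIT3 and ISG15 were higher in knockout 2 than in knockout 8, and ISG20 was not. APOBEC3G, APOBEC3B and APOBEC3F had the same order, and APOBEC3C and APOBEC3D did not. CDKN1A, MYBL2 and FOXM1, outside this list, had it too, so the order is not particular to APOBEC3G. The part of interferon-stimulated genes in the APOBEC3G values was not tested.

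Among 18 other restrictors of retroelements, limma and DESeq2 called 0, and limma gave an unadjusted p under 0.05 to 1 higher and 4 lower, against 5.85% and 6.16% of all genes. Knockout libraries lay above both parental ones in 6 of the 18 and below in 7, where 22.8% and 23.7% of all genes tested did so. SAMHD1, which depletes nucleotides, had 829 and 965 against 614 and 667. MOV10, an RNA helicase that binds APOBEC3G and LINE1 particles, had 3732 and 3756 against 4498 and 4326, and TRIM5, a capsid sensor, 569 and 554 against 789 and 715. The limma adjusted p of these 3 lay between 0.312 and 0.357. The list's median was 0.03.

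Uracils left by deaminases are removed by base excision repair. Of 15 genes of that route limma and DESeq2 called 0, and the unadjusted limma p was under 0.05 for FEN1, higher, and POLB, lower, against 5.85% and 6.16% of all genes. UNG, the main uracil glycosylase, had 2718 and 2478 against 2423 and 2731. POLB, the gap-filling polymerase, had 568 and 596 normalized counts in knockout cells against 750 and 719 in parental cells, a difference of -0.34 ± 0.10 on the log2 scale (limma adjusted p = 0.362), and FEN1, a flap nuclease of repair and replication, 7094 and 5686 against 4703 and 5201 (adjusted p = 0.411). The median of the list was -0.04. The next list held 8 genes, of the cullin 5 ligase that Vif borrows to degrade APOBEC3 proteins, of its cofactor CBFB and of the CBFB partner RUNX1. Of these, 0 were called by either tool and 1, ELOC (listed as TCEB1), was higher at an unadjusted limma p under 0.05 (5.85% of all genes), with 4015 and 3767 against 3106 and 3416. CUL5, the cullin of that ligase, had 1125 and 1563 against 1663 and 1653.

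Relatives outside the APOBEC3 cluster were also looked at. APOBEC1, the editor of apolipoprotein B RNA, its cofactor A1CF and APOBEC2 had at most 1 read in any library, and APOBEC4 had 0 reads. RBM47, an RNA-binding cofactor of APOBEC1, was the only one of 6 genes tested and had 431 and 807 against 394 and 442, with overlapping groups (limma adjusted p = 0.582).

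The genes most like each member were sought among 12270 tested genes with a mean of at least 100, by Euclidean distance between centred log2 values over the 4 libraries. With so few libraries many genes come close, so the lists are descriptions. For APOBEC3G the nearest were ZNF703, ABLIM1 and KCTD12 (distances 0.039 to 0.045), and 33 genes lay within 0.1. For APOBEC3D they were CARHSP1, HYI and ANKRD36C (0.024 to 0.036, 98 within 0.1), and for APOBEC3C FBXO6, ZKSCAN1 and RPL13AP6 (0.023 to 0.031, 192 within 0.1). For APOBEC3B they were CEP55, a gene of cytokinesis, SPRTN, a protease of DNA repair, and CDKN2AIPNL (0.019 to 0.022, 224 within 0.1), and for APOBEC3F DBR1, ACTL6A and MRPL50 (0.016 to 0.021, 367 within 0.1). CEP55 had 3033 and 2503 against 2591 and 2899, the same order of libraries as APOBEC3B, which follows from its choice by these same values.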

How the data were processed

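The deposited table gives a normalized signal per gene and library, which the authors made by dividing gene read counts by 1 size factor per library. All values were whole multiples of their library's step within 0.001 (100% in each library), so whole reads were recovered. The tools named in the submitters' processing notes are STAR, HTSeq, DESeq2, Picard and deepTools, and the build is hg38. Their versions, the annotation, the strand setting and the handling of multiply aligned reads were not given in the sources used here. Per the labels' protocols, libraries were poly(A)-selected and directional. Parental columns match the labelled replicates, while knockout columns, numbered 2 and 8, were used as members of their group.

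Groups were compared with limma-trend (limma 3.58.1) on values transformed as log2(normalized count + 1), for the 15431 genes with at least 10 in at least 2 of 4 libraries, adjusted by Benjamini-Hochberg (threshold 0.05). Such fold changes understate changes of low genes. The limma fit was run on simulated reads only as a check of the code. These reads varied less between libraries than the knockout libraries do, so that check does not show what change could be detected here. edgeR 4.0.16, limma-voom and DESeq2 1.42.0 were run on recovered reads, besides other filters, scaling, a pseudocount of 0.1 and leaving out libraries. With 2 libraries against 2 no exact permutation test can reach 0.05. The data hold reads without molecular identifiers, so floors (3 reads) and intervals cover counting error only.

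Positions, transcripts and exon lengths came from GENCODE 29. Members, related lists (141 genes, 3 found through older symbols) and the rule for named genes (all members; per list the up to 4 smallest limma p and DESeq2 calls; the 3 nearest genes per member; the flanking genes) were chosen with earlier results of these data known; further list members were named after their values were seen. The transcript of the edited gene and some genes of the related lists are not reported here.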

Additional observations from a re-analysis of the deposited data

How the results depend on the processing

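Over all genes tested, 0 were called by limma, edgeR with TMM or RLE factors, limma-voom, library-total scaling, either other filter or a pseudocount of 0.1, and 398 by DESeq2. Leaving out 1 library at a time gave between 0 and 5023 calls by limma (2896 without knockout 2, 5023 without knockout 8, 0 without either parental library). DESeq2, in a setting chosen after seeing the data, gave 1270 without knockout 2, 2611 without knockout 8, 39 without parental 1 and 46 without parental 2. With 1 knockout library left, the spread rests on the parental pair and the lone library is assumed to vary alike. For the 5 tested members each setting with all libraries called 0; leaving out a library gave 0 to 1, the call being APOBEC3G without knockout 8 by limma and by DESeq2. Of the 141 genes of the related lists, limma tested 114 and called 0, and DESeq2 gave an adjusted p to 118 and called 7. Leaving out a library gave 0 to 65 calls among the 114 by limma. They were 31 without knockout 2 and 65 without knockout 8, against 18.8% and 32.6% of all genes. DESeq2 called 16 of 111 without knockout 2 and 33 of 115 without knockout 8, against 8.55% and 17.1% of all genes. With all libraries APOBEC3G ranged from 0.47 to 0.50 on the log2 scale, APOBEC3D from -0.41 to -0.34 and APOBEC3C from -0.20 to -0.18, over 8 alternatives each. Leaving out 1 library, limma gave -0.10 without parental 1 to -0.29 without parental 2 for APOBEC3C. APOBEC3B, within -0.01 to 0.01 with all libraries, ran from -0.14 without knockout 2 to 0.15 without knockout 8, and APOBEC3F from -0.02 to 0.19 for the same libraries, all uncalled. No paired analysis was possible because nothing ties knockout libraries 2 and 8 to the labelled replicate numbers. APOBEC3A, at 0 reads, could not be fitted, and the counts of APOBEC3H (4 to 15 reads) limit any statement on it.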
